A study of Mus musculus with 29 samples.

Results

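Hippocampal transcripts of 7 genes were examined, the E-protein genes Tcf4, Tcf3 and Tcf12 and the inhibitor genes Id1, Id2, Id3 and Id4, out of 31002 protein-coding and long non-coding genes measured in 29 mice. These 7 genes were selected by name, and the family was chosen because Tcf4 had been seen to be lower in 22-month-old hAβ-KI mice. That difference is therefore given as a description without a test. Each gene reached at least 1 TPM, a transcript abundance corrected for transcript length and scaled to a common total, in all 29 mice, so that all 7 were among the 15554 genes tested, which had at least 1 TPM in at least 2 mice. Mice aged 2 months (young; 7 wild-type, WT, and 8 homozygous hAβ-KI) were compared with mice aged 22 months (old; 8 WT and 6 hAβ-KI), with both sexes in each group and 1 library per mouse. In hAβ-KI mice the mouse App gene carries amino acid changes that turn its Aβ stretch into the human form, and the altered exon is flanked by loxP sites. The labels of these mice give no treatment. The labels name the strain C57BL/6NJ for hAβ-KI and C57BL/6N for WT mice, so that strain and genotype cannot be told apart. The index numbers in the names of the libraries ran in blocks that matched the 4 groups. The labels do not say what these numbers stand for, and anything that goes with them cannot be told apart from group. Tcf4 lies on chromosome 18 at 69343356-69689079 on the plus strand (GRCm38, GENCODE M21), Tcf3 on chromosome 10 at 80409514-80433647 on the minus strand and Tcf12 on chromosome 9 at 71842688-72111871 on the minus strand.

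E-proteins are basic helix-loop-helix (bHLH) transcription factors that are made in most tissues. They bind DNA as dimers, either with each other or with tissue-restricted bHLH factors such as those of the NeuroD family, at a short motif called the E-box. Id proteins have the helix-loop-helix but no basic region, so that an E-protein bound to an Id protein cannot bind DNA, and Id genes are well known targets of bone morphogenetic protein (BMP) signalling. In the adult brain Tcf4 is widely made by neurons, and loss of a copy of its human counterpart causes Pitt-Hopkins syndrome. The symbols invite confusion, since Tcf7l2 and Tcf7l1, which encode HMG-box partners of β-catenin, have also been called TCF4 and TCF3.

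Before the comparisons, the libraries were compared with each other. The TPM of the genes measured here summed to 717535 to 816940 per library, so that this sum was not the same in each mouse. Mitochondrial genes made up 8.54% to 10.9% of the summed TPM, and 13528 to 14189 genes reached 1 TPM in a mouse. None of the 406 pairs of libraries held identical values. All 5 neuron markers were present in every group, with a summed level of 2493 to 2918 TPM across the mice. Choroid plexus markers, in contrast, ranged from 36.5 to 17910 TPM in sum, and the transthyretin gene Ttr alone from 30.09 to 17660 TPM. The library of hAβ-KI mouse 2 at 22 months stood apart. It had 3.21 TPM of the dentate granule cell factor Prox1, against 4.99 to 9.15 TPM in the other 28 mice, and 19.03 TPM of Tcf7l2, against 7.32 to 12.06 TPM. Values of the older hAβ-KI group are given also without this mouse where leaving it out ended a call or moved a difference by over 1.5 times. In pieces of whole tissue, fewer cells of a type and less RNA per cell cannot be told apart.

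Tcf4 was the predominant E-protein transcript. Over all 29 mice it averaged 230.0 TPM, whereas Tcf3 averaged 11.06 TPM and Tcf12 averaged 8.90 TPM, and Tcf4 made up 85.4% to 95.8% of the summed E-protein TPM of a mouse. Among the inhibitors Id2 was the most abundant at 114.1 TPM, followed by Id3 at 90.41 TPM and Id1 at 31.61 TPM, and Id4 was the least abundant at 6.27 TPM. TPM are corrected for transcript length, so that these levels can be set side by side. Id2 varied least between mice of the same group, with a coefficient of variation of 8.23%, and Id4 most with 60.5%. The ranges of Id2 (97.84 to 138.4 TPM) and Id3 (71.58 to 118.2 TPM) overlapped, as did those of Tcf3 (4.12 to 15.45 TPM), Tcf12 (5.98 to 11.06 TPM) and Id4 (2.70 to 21.28 TPM). The lowest Tcf4 value, 138.5 TPM, was only just above the highest Id2 value.

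**Figure D1:**
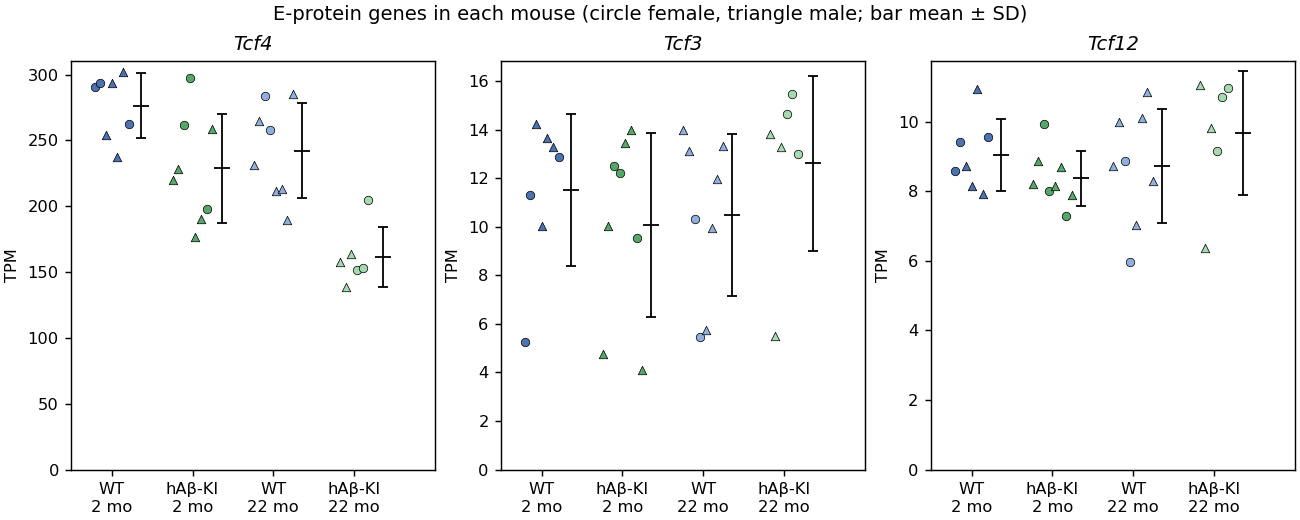
TPM of Tcf4, Tcf3 and Tcf12 (vertical axis, from 0) in each mouse of the 4 groups, with circles for females, triangles for males and bars for the mean ± SD. Tcf4 lies between 138.5 and 204.8 TPM in the older hAβ-KI mice and between 176.6 and 302.1 TPM in all others, and Tcf3 leaves an empty band between 5.75 and 9.53 TPM.

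At 22 months Tcf4, the gene for which the family was chosen, had lower values in the hAβ-KI group. In the 8 WT mice it had a lowest value of 189.4, a median of 244.7 and a highest value of 285.4 TPM, with a mean of 242.2 ± 36.03 TPM (SD, n = 8). In the 6 hAβ-KI mice the lowest was 138.5, the median 155.4 and the highest 204.8 TPM, with a mean of 161.6 ± 22.75 TPM (SD, n = 6), which is 66.7% of the WT mean. The groups overlapped through a single mouse on each side: 5 of 6 hAβ-KI mice were below every WT mouse, and 7 of 8 WT mice were above every hAβ-KI mouse. On the log2(TPM + 1) scale the difference was -0.58 (SE 0.11), and it was -0.54 without hAβ-KI mouse 2, which had the lowest value. In this contrast 0.495% of all tested genes passed the threshold of a Benjamini-Hochberg adjusted p under 0.1 with an unadjusted p under 0.05 in limma, and nothing is read from it for Tcf4. Of the neuron markers, Rbfox3, which encodes the nuclear protein NeuN, was also lower in these mice (127.0 ± 7.27 against 146.4 ± 10.30 TPM, SD, n = 6 and 8, limma adjusted p = 0.0678, and 0.0981 without hAβ-KI mouse 2), and the other 4 of the 5 were not called. Whether this has a part in the Tcf4 values was not tested.

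At 2 months, Tcf4 was not called different between the genotypes, and the direction was the same as at 22 months. The 7 WT mice ranged from 237.4 to 302.1 TPM with a median of 290.7 and a mean of 276.2 ± 24.74 TPM (SD). The 8 hAβ-KI mice ranged from 176.6 to 297.2 TPM with a median of 224.1 and a mean of 228.8 ± 41.24 TPM (SD). The spread within the hAβ-KI group was wide, as 5 of its 8 mice were below every WT mouse while its highest was above all but 1 of them. The log2 difference was -0.29 (SE 0.10), with an unadjusted p of 0.00851 and an adjusted p of 0.601 in limma. Across the other ways of processing, the adjusted p stayed between 0.469 and 0.770. Only 0.0386% of all tested genes (6 of 15554) passed in this contrast, where 1041 genes (6.69%) had an unadjusted p under 0.05.

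With age, Tcf4 was lower in both genotypes, and since the older hAβ-KI mice were what the choice rested on and the age comparison in WT mice shares its older group with that contrast, both are described without a test. In WT mice the mean at 22 months was 87.7% of that at 2 months (log2 difference -0.20, SE 0.10), with every older mouse below the median of the younger ones. In hAβ-KI mice it was 70.6% (log2 difference -0.49, SE 0.11), and 5 of 6 older mice were below every younger mouse. Without hAβ-KI mouse 2 at 22 months the difference in hAβ-KI mice was -0.45. Males had a lower mean of Tcf4 than females in each of the 4 groups, though with few mice of a sex. The means were 271.6 (4 males) against 282.4 TPM (3 females) in young WT and 214.7 (5) against 252.3 TPM (3) in young hAβ-KI mice. At 22 months they were 232.6 (6) against 271.0 TPM (2) in WT and 153.3 (3) against 169.9 TPM (3) in hAβ-KI mice. The sex difference did not pass across all genes (log2 difference of males minus females -0.16, SE 0.07, limma unadjusted p = 0.0290 and adjusted p = 0.797). Of all tested genes, 0.0964% (15) passed for sex.

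Tcf3, which encodes the E-proteins E12 and E47, fell into separate levels that did not follow the groups. In 6 mice it had 4.12 to 5.75 TPM and in the other 23 mice 9.53 to 15.45 TPM, with no mouse between. The lower mice were 1 of 7 young WT, 2 of 8 young hAβ-KI, 2 of 8 old WT and 1 of 6 old hAβ-KI mice. Group means were accordingly wide, at 11.51 ± 3.12 and 10.08 ± 3.80 TPM in young WT and young hAβ-KI mice (SD, n = 7 and 8), and 10.49 ± 3.33 and 12.62 ± 3.60 TPM at 22 months (SD, n = 8 and 6). Other genes followed the same gap. With group means removed, 105 of 9675 genes with a mean of at least 5 TPM had a Pearson r over 0.9 with Tcf3 across the 29 mice, led by Clptm1l (r = 0.98), Mlycd (r = 0.98) and Ctbp1 (r = 0.98). For Tcf4 there was 1 such gene, for Id4 there were 3, and for each of the other members there was none. No base of the Tcf3 transcripts lay in a 43-base stretch, the length of the reads, that another gene also holds.

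Tcf12, which encodes the E-protein HEB, had group means within 8.38 to 9.68 TPM. They were 9.04 ± 1.03 TPM in young WT and 8.38 ± 0.79 TPM in young hAβ-KI mice (SD, n = 7 and 8), and 8.73 ± 1.63 and 9.68 ± 1.78 TPM at 22 months (SD, n = 8 and 6). At 2 months neither gene was called for genotype in limma, with log2 differences of -0.22 (SE 0.25, adjusted p = 0.960) for Tcf3 and -0.10 (SE 0.10, adjusted p = 0.956) for Tcf12. Neither was called with age in WT mice, where 1.93% of all tested genes passed as higher and 3.07% as lower, or in hAβ-KI mice, where 3.86% passed as higher and 5.32% as lower. The split in WT mice depended on scaling, as 300 genes were higher and 477 lower, against 381 and 230 after quantile normalization and 408 and 304 with a common sum over protein-coding genes of the nucleus. In hAβ-KI mice the log2 differences with age were 0.33 (95% confidence interval -0.20 to 0.87, adjusted p = 0.515) for Tcf3 and 0.17 (-0.05 to 0.39, adjusted p = 0.392) for Tcf12, and without hAβ-KI mouse 2 they were 0.53 and 0.28. Over the fits with a mouse left out, the limma adjusted p for age in hAβ-KI mice was 0.226 to 0.753 for Tcf3 and 0.103 to 0.582 for Tcf12. At 22 months, the values of hAβ-KI minus WT mice were 0.25 (SE 0.26) for Tcf3 and 0.13 (SE 0.11) for Tcf12, and 0.45 and 0.24 without hAβ-KI mouse 2, not tested because the family was chosen in that contrast. In those older hAβ-KI mice Tcf4 made up 87.9% ± 2.49 of the summed E-protein TPM, against 92.3% to 93.0% in the means of the other groups.

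Apart from Id4, the Id genes had similar means in the 4 groups. Id2, which is made in many neurons, had 116.9 ± 9.29 and 109.6 ± 6.63 TPM in young WT and young hAβ-KI mice (SD, n = 7 and 8) and 112.6 ± 10.81 and 118.7 ± 10.56 TPM at 22 months (SD, n = 8 and 6). Its limma differences were bounded narrowly, with a 95% confidence interval of -0.21 to 0.03 for genotype at 2 months, -0.18 to 0.06 for age in WT and -0.01 to 0.24 for age in hAβ-KI mice, and adjusted p values of 0.869, 0.694 and 0.318. Its highest value of all, 138.4 TPM, was in hAβ-KI mouse 2 at 22 months. The log2 difference between genotypes at 22 months was 0.08, and 0.03 without that mouse, and with age in hAβ-KI mice it was 0.11, and 0.07 without it. Of the 43-base stretches of Id2, 0.617% are also in the pseudogene Gm6175. Id2 lies on chromosome 12 at 25093799-25097140 on the minus strand.

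Id1 and Id3, which in brain are known mostly from blood vessels and glia, were also not called in any tested comparison of the main limma fit. Id1 had group means of 29.67 to 33.17 TPM and ranged from 18.28 TPM in a WT mouse at 2 months to 50.82 TPM in a WT mouse at 22 months. Id3 had 96.57 ± 13.34 and 93.73 ± 12.64 TPM in young WT and young hAβ-KI mice (SD, n = 7 and 8), and 85.53 ± 9.24 and 85.31 ± 5.13 TPM at 22 months (SD, n = 8 and 6). All 8 older WT mice were below the Id3 median of the younger ones, and the log2 difference was -0.17 (SE 0.08, limma unadjusted p = 0.0489, adjusted p = 0.303). With the endothelium marker score as a covariate, an alternative chosen after seeing the data, it was -0.27 with an adjusted p of 0.0282, while over the other 10 alternatives the adjusted p was above the threshold. Endothelium markers had a median sum of 160.3 TPM in younger and 184.0 TPM in older WT mice. At 22 months the difference between genotypes was 0.01 (SE 0.15) for Id1, and 0.06 without hAβ-KI mouse 2, and it was 0.00 (SE 0.09) for Id3.

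Id4, an inhibitor known from neural precursors and astrocytes, was low and uneven. At 2 months it ranged from 3.95 to 11.99 TPM with a median of 6.86 in the 7 WT mice and from 2.70 to 9.31 TPM with a median of 3.77 in the 8 hAβ-KI mice, of which 6 were below every WT mouse. The log2 difference was -0.58 (SE 0.28), and it did not pass (limma unadjusted p = 0.0449, adjusted p = 0.736). At 22 months WT mice ranged from 2.75 to 11.68 TPM with a median of 4.64, and hAβ-KI mice from 3.96 to 21.28 TPM with a median of 5.25. The highest value came from hAβ-KI mouse 4, a female, and the next in that group was 8.24 TPM. With age in hAβ-KI mice the log2 difference was 0.58 (SE 0.29, adjusted p = 0.264), and it was 0.28 without hAβ-KI mouse 4 (adjusted p = 0.628). The start of Id4, which lies on chromosome 13 at 48261228-48266026 on the plus strand, overlaps the antisense gene A330033J07Rik by 1396 bases, and as the library method does not mark strand, reads from this overlap cannot be told apart.

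**Figure D2:**
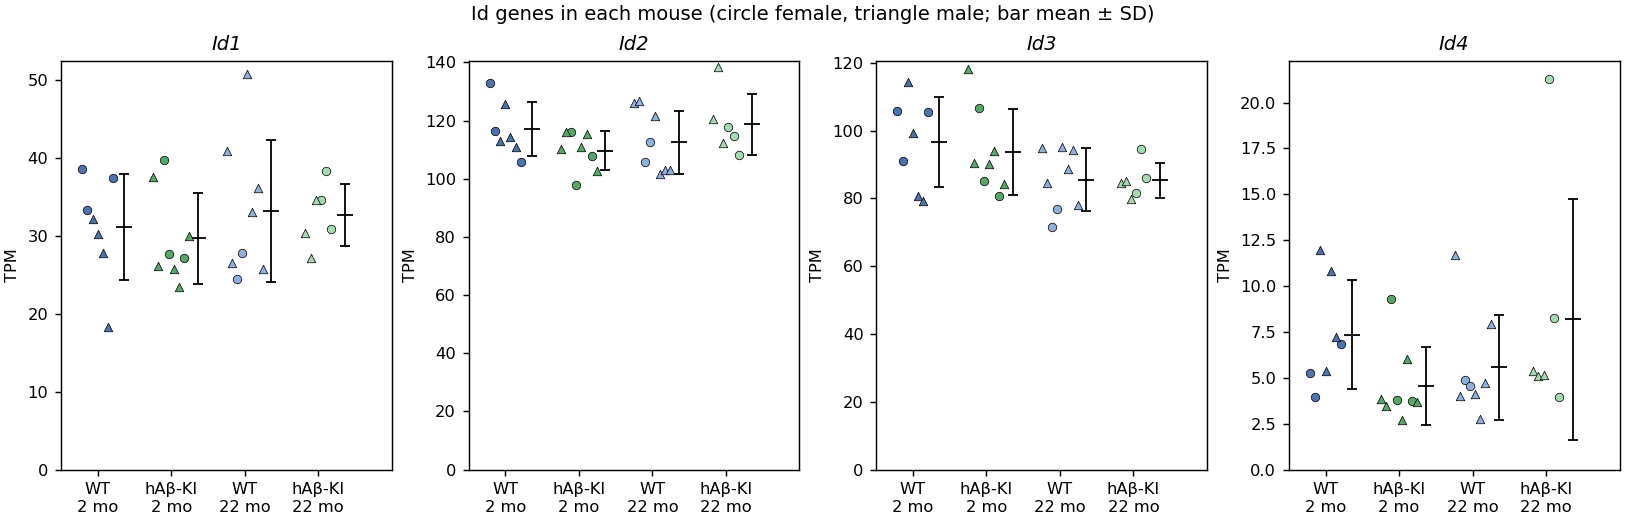
TPM of Id1, Id2, Id3 and Id4 (vertical axis, from 0) in each mouse, with circles for females, triangles for males and bars for the mean ± SD. The 4 groups overlap for each gene, and the highest Id4 value, 21.28 TPM, is a single hAβ-KI mouse at 22 months.

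In none of the 4 group comparisons did the values of any member separate completely, a pattern that 0.0707% of all tested genes showed between genotypes at 2 months, 0.328% at 22 months, 0.887% with age in WT and 1.64% with age in hAβ-KI mice. No member was called in limma for genotype at 2 months or sex (7 tested each) or for age in either genotype (6 tested each). At an unadjusted p under 0.05 there were 2 members for genotype at 2 months (Tcf4 and Id4), 1 for sex (Tcf4), 1 for age in WT mice (Id3) and 0 for age in hAβ-KI mice, where of all tested genes 6.69%, 5.98%, 16.2% and 19.9%, respectively, had such a p.

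**Figure D3:**
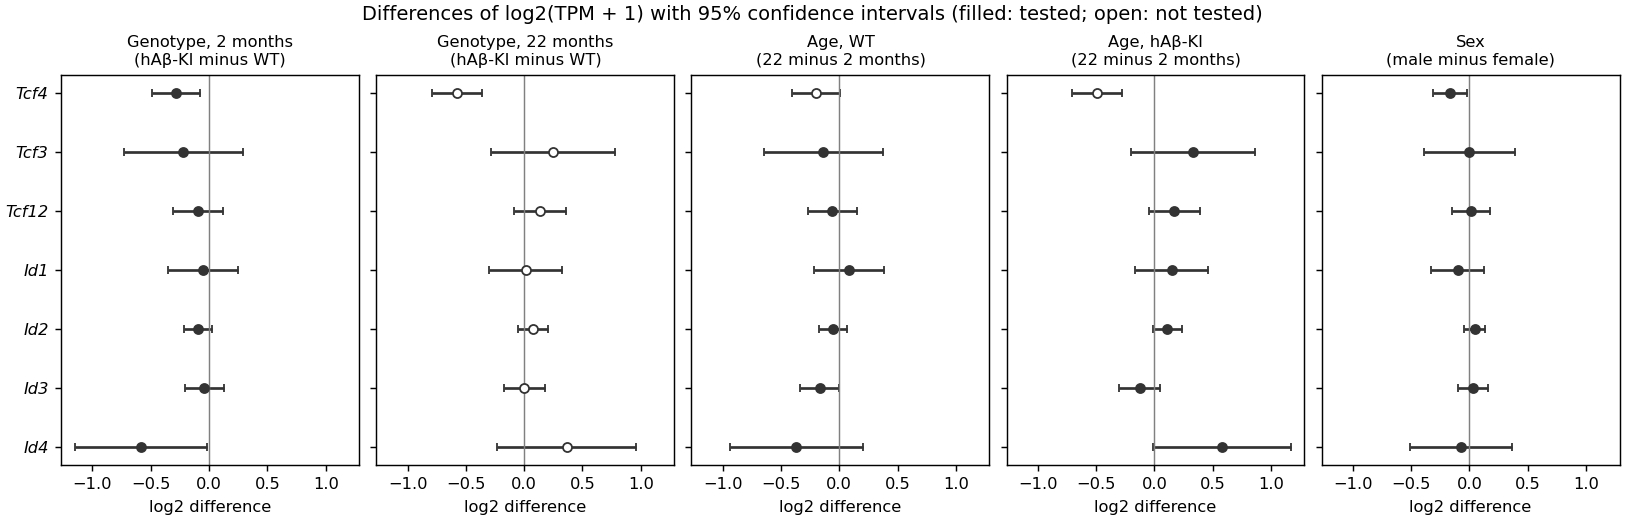
Differences of log2(TPM + 1) (horizontal axis) for each gene in 5 contrasts, with 95% confidence intervals from limma, filled points where a test was made and open points where the choice of the family rested on the contrast. The open Tcf4 points include -0.58 for genotype at 22 months and -0.49 for age in hAβ-KI mice. They rest on the values used for the choice, so that their intervals are not read as a test. The intervals of Tcf3 and Id4 are the widest.

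Because Id proteins act on E-proteins by binding them, the summed levels were set against each other in each mouse, as transcripts only. The summed Id TPM differed little between groups, with means of 252.0 ± 22.74 and 237.6 ± 22.14 in young WT and young hAβ-KI mice (SD, n = 7 and 8) and 236.9 ± 24.90 and 244.8 ± 12.47 at 22 months (SD, n = 8 and 6). The summed E-protein TPM was 296.8 ± 22.52, 247.2 ± 40.87, 261.4 ± 36.38 and 183.9 ± 25.45 in the same order. The ratio of the former to the latter thus averaged 0.854 ± 0.105, 0.983 ± 0.172, 0.928 ± 0.198 and 1.36 ± 0.23. In the older hAβ-KI mice it ranged from 1.00 to 1.70, and in the older WT mice from 0.682 to 1.21. Since Tcf4 is most of the denominator, the ratio follows the values for which the family was chosen, and it was not tested.

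**Figure D4:**
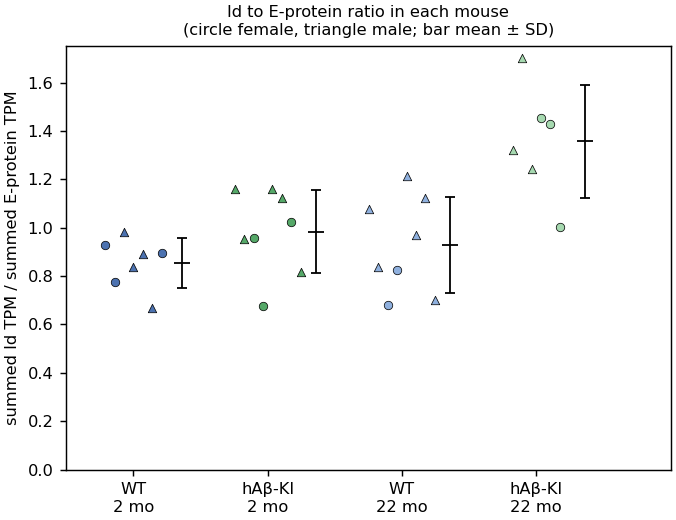
Summed TPM of Id1, Id2, Id3 and Id4 divided by that of Tcf4, Tcf3 and Tcf12 (vertical axis, from 0) in each mouse, with bars for the mean ± SD. The older hAβ-KI mice lie between 1.00 and 1.70, above every young WT mouse (up to 0.980), and overlap the other 2 groups.

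Among mice of the same group, Id1 and Id3 varied together. With group means removed, Pearson r was 0.74 and Spearman rho 0.70 (n = 29 mice, two-sided permutation test within groups, adjusted p = 0.000420 and 0.00378 over 21 pairs of members), and r was 0.71 without the 2 mice farthest from the median of Id1. Both also moved with non-neuronal markers: r with the endothelium score was 0.58 for Id1 and 0.70 for Id3, with the mural cell score 0.56 for each, with the choroid plexus score 0.73 and 0.59, and with the summed TPM of the library 0.71 each. With the score of the BMP genes listed below, r was 0.61 for Id1 and 0.73 for Id3. With the endothelium and choroid plexus scores both removed, r between Id1 and Id3 was 0.45. The BMP score was not removed in this way, and the part of each score in the relation was not tested. All 5 endothelium and all 5 choroid plexus markers were detected in every group. Endothelium markers summed to 139.8 to 209.0 and 123.6 to 182.7 TPM in young WT and young hAβ-KI mice, and to 143.9 to 199.2 and 123.8 to 188.3 TPM at 22 months. Choroid plexus markers were low in some mice of every group, with lowest sums of 38.53, 36.52, 45.56 and 76.94 TPM against highest sums of 15140, 15640, 17910 and 11400 TPM in the same order.

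Since Tcf3 formed separate clusters of mice, its relation to the other members was taken within the 23 mice of the upper cluster, a subset chosen after seeing the data. In that subset Tcf3 and Id4 were called (r = 0.57, rho = 0.62, n = 23 mice, two-sided permutation test, adjusted p = 0.0467 and 0.0227 over 21 pairs, r = 0.59 without the 2 mice farthest from the median of Tcf3). Among the 6 mice of the lower cluster r was 0.37. For the lower cluster the means removed were those of the whole groups, and for the upper cluster those of its own mice. The r of the lower and upper cluster are therefore not the same measure. Between Tcf3 and Tcf12 no relation was detected within the upper cluster (r = 0.10, rho = -0.02, permutation adjusted p = 0.775 and 0.983) and r was -0.15 in the lower one. The test over all 29 mice gave other calls. There Tcf3 with Id4 passed by rho (permutation adjusted p = 0.0219) but not by r (permutation adjusted p = 0.348), and Tcf3 with Tcf12 passed by r (permutation adjusted p = 0.0157) but not by rho (permutation adjusted p = 0.221). Id1 and Id3 gave r = 0.74 in the upper 23 mice (permutation adjusted p = 0.00672). No pair with Tcf4 was called, with r between -0.26 and 0.01 over all mice.

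**Figure D5:**
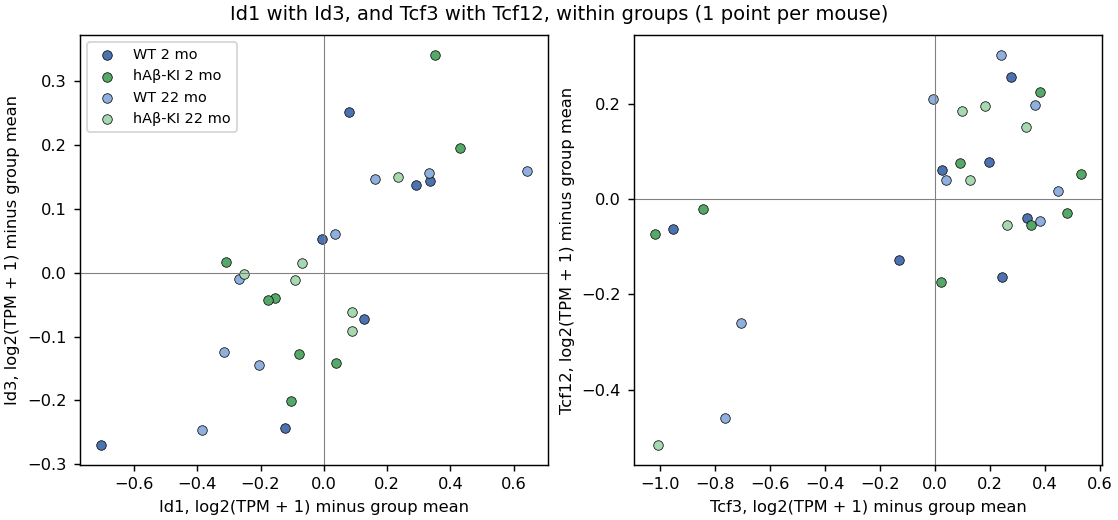
Left, Id3 against Id1, and right, Tcf12 against Tcf3, as log2(TPM + 1) minus the mean of the group, 1 point per mouse and a colour per group. Id1 and Id3 rise together through all 4 groups (r = 0.74), and the 6 mice low in Tcf3 stand apart on the left of the other panel.

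The promoter windows of the members were read from RefSeq (GRCm38.p6, 250 bases before to 50 after a start site), with E-boxes, CANNTG on either strand, in capitals. Windows of 5 members were read. None was found for Id1, and Tcf4 was not read. Id3, which varied with Id1, is shown with Tcf3 and Id4, the pair called in the upper cluster of mice, and with Id2 as the only Id window of the 3 that holds an E-box. They are chr4:136143572-136143871 on the plus strand for Id3, chr12:25096043-25096342 on the minus strand for Id2, chr13:48260866-48261165 on the plus strand for Id4 and chr10:80433586-80433885 on the minus strand for Tcf3.
Id3: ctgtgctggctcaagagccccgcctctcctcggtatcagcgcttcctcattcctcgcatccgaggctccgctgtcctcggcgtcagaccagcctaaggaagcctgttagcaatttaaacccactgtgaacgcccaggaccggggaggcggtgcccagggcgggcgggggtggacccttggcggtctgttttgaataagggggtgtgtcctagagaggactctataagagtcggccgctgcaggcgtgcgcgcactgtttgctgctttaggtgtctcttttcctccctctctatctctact
Id2: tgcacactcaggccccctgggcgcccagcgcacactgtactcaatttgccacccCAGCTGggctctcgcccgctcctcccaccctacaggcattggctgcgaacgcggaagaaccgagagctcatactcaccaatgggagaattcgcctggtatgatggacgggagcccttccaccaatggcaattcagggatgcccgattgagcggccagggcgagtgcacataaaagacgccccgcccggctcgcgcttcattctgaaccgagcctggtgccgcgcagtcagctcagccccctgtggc
Id4: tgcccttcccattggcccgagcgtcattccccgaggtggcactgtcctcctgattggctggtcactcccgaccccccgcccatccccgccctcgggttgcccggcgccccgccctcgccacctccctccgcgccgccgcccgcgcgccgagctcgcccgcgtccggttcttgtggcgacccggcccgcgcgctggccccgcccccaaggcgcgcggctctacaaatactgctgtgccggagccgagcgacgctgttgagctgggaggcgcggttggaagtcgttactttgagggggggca
Tcf3: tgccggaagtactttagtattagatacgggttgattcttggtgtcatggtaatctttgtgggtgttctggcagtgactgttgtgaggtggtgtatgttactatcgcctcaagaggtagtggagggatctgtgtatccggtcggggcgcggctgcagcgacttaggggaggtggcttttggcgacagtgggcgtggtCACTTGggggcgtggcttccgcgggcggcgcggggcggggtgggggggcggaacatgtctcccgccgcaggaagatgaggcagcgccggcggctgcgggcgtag
The E-box in the Id2 window is CAGCTG, 196 bases before the start site, and that in the Tcf3 window is CACTTG, 54 bases before it. The first of 3 Tcf12 windows also holds CAGCTG. Of 32851 mouse promoter windows, 72.3% hold an E-box and 16.3% hold CAGCTG. The letters GGCGCC, a GC-rich motif that BMP-responsive Smad proteins can bind, stand in the Id2 and Id4 windows and in 11.9% of all windows, and they do not overlap the E-boxes. Between Id2 and Id4, r was 0.08 over all mice with group means removed.

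The pathway around these genes was followed through lists of partners, repressors, cofactors and BMP components. Among bHLH partners, 14 of 30 were expressed enough to be tested. In WT mice 2 of the 14 were lower with age, the neurogenic factor Neurod1 (14.53 ± 1.61 to 11.78 ± 1.199 TPM, SD, n = 7 and 8, limma adjusted p = 0.0286) and Nhlh2 (0.99 ± 0.26 to 0.51 ± 0.18 TPM, adjusted p = 0.0220), where the median log2 difference of the list was -0.11 and that of all tested genes -0.03. In hAβ-KI mice 2 of 14 were lower, Neurod6, a factor of pyramidal neurons (log2 difference -0.44, SE 0.15, adjusted p = 0.0761), and Nhlh2 (-0.29, SE 0.10, adjusted p = 0.0862). The size of the Neurod6 difference rested on hAβ-KI mouse 2, without which it was -0.19 (adjusted p = 0.0406), and Neurod6 was not called under 3 of 11 alternatives (no filter, quantile normalization and only the 2 groups compared) or in 4 of 29 fits with 1 mouse left out (adjusted p up to 0.226). Nhlh2 was not called in 10 of the 29 such fits, among them that without hAβ-KI mouse 2 (adjusted p = 0.137). It was also not called with mice that share a name number, the first number in the label of a mouse, taken as correlated, or with only the 2 groups compared (adjusted p up to 0.207). Where a mean of at least 1 TPM was required, Nhlh2 was dropped by the filter and not tested. The list median in hAβ-KI mice was 0.00, as was that of all genes.

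Of 9 tested Hes and Hey repressors, bHLH factors that act downstream of Notch or the clock, Hey1 was lower with age in WT mice (-0.17, SE 0.05, adjusted p = 0.0950), a call that was kept under only 3 of 11 alternatives, not with mice that share a name number correlated, and in only 8 of the 29 fits with 1 mouse left out (adjusted p up to 0.327). Bhlhe41, a clock-related repressor, was higher with age in hAβ-KI mice, from 14.27 ± 1.54 to 19.52 ± 1.63 TPM (SD, n = 8 and 6, adjusted p = 0.000553), and it was called under all 11 alternatives and with any mouse left out. In WT mice it had 15.03 ± 1.92 TPM at 2 and 16.15 ± 0.89 TPM at 22 months (adjusted p = 0.479). Whether age acted differently on Bhlhe41 in the genotypes was not tested. Of 16 cofactors, all tested, none was called with age in WT mice or had an unadjusted p under 0.05. Whether age acted differently on the cofactors in the genotypes was not tested. In hAβ-KI mice 3 were called with age. These were the co-repressor Cbfa2t2 (-0.20) and the LIM-only protein gene Lmo3 (-0.16), which were lower, and Ssbp3, a partner of LIM-domain complexes (0.32), which was higher. Lmo3 and Ssbp3 were not called without hAβ-KI mouse 2 (adjusted p = 0.118 and 0.181), and in all they were kept in 23 and 24 of 29 fits with 1 mouse left out and under 10 and 9 of 11 alternatives. Cbfa2t2 was kept in 21 of 29 such fits and under 10 of 11 alternatives, and was lost with only the 2 groups compared (adjusted p up to 0.146).

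Of 30 BMP genes 27 were tested. In WT mice 3 were higher with age, the ligand Bmp6 (0.60, SE 0.18, limma adjusted p = 0.0736), the endothelial receptor Acvrl1 (0.27, SE 0.08, adjusted p = 0.0842) and its co-receptor endoglin, Eng (18.10 ± 2.91 to 24.24 ± 4.93 TPM, SD, n = 7 and 8, adjusted p = 0.0308). Of these, Eng was called with any mouse left out but not with only the 2 groups compared (adjusted p = 0.101). Acvrl1 and Bmp6 were kept in 21 and 22 of 29 such fits and under 6 and 8 of 11 alternatives, and both were lost with the endothelium score as a covariate, with no filter and with only the 2 groups compared (adjusted p up to 0.187 and 0.188). Acvrl1 was also lost when mice of the same name number were taken as correlated and when sex was added to the model. In hAβ-KI mice Bmp6 was higher (0.59, SE 0.19, adjusted p = 0.0646), as was Smurf1, a ubiquitin ligase for BMP Smads (0.32, SE 0.10, adjusted p = 0.0553), and the ligand Gdf10 was lower (-0.27, SE 0.08, adjusted p = 0.0527). Without hAβ-KI mouse 2, Smurf1 and Gdf10 were not called (adjusted p = 0.110 and 0.126), and each was kept under 10 of 11 alternatives. Bmp6 was kept in 24 of 29 fits with 1 mouse left out and was lost with a pseudocount of 0.1 and with no filter (adjusted p up to 0.159). The list medians were 0.01 in WT and 0.09 in hAβ-KI mice. Over the 4 lists of partners, repressors, cofactors and BMP genes, 6 of 66 tested genes were called with age in WT mice. Of all tested genes, 1.93% passed there as higher and 3.07% as lower. In hAβ-KI mice 9 of the 66 were called, where 3.86% of all tested genes passed as higher and 5.32% as lower. An unadjusted limma p under 0.05 was found for 9 of the 66 in WT and 17 in hAβ-KI mice. The shares of all tested genes were 16.2% and 19.9%. For genotype at 2 or 22 months and for sex, none of the 66 tested genes of these 4 lists was called in limma, and 4, 7 and 9 of them, respectively, had an unadjusted p under 0.05, as did 6.69%, 10.2% and 5.98% of all tested genes.

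Of the namesakes, 3 of 4 were tested and none was called in any contrast, or had an unadjusted p under 0.05. Tcf7l2 had a log2 difference between genotypes of 0.16 (SE 0.12) at 22 months, which was -0.01 without hAβ-KI mouse 2, and -0.08 (SE 0.12) at 2 months.

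Among the genes whose levels were most like those of Tcf4 across the 29 mice were Add2, which encodes β-adducin of the membrane skeleton (Pearson r = 0.96, and 0.93 with group means removed), Ociad1 (r = 0.92), Ccser2 (r = 0.92) and Trip11, a Golgi protein gene (r = 0.92). Of 9675 genes compared, 47 had r over 0.8, and the median r was 0.10. The r over all mice includes the genotype difference at 22 months for which the family was chosen. The group values of Add2 below are therefore no separate result. With group means removed, r was 0.82 for Ociad1, 0.86 for Ccser2 and 0.85 for Trip11. By that measure 20 genes had r over 0.8, and the median r was 0.02. These points share their libraries and scaling, so that the values are descriptive. Add2 had 48.80 ± 14.66 TPM in WT and 30.63 ± 5.15 TPM in hAβ-KI mice at 22 months (SD, n = 8 and 6), and 61.79 ± 10.53 and 47.68 ± 11.36 TPM at 2 months (SD, n = 7 and 8). With group means removed, r of Tcf4 was 0.01 with the mitochondrial share of a library and -0.03 with the number of genes detected. It was 0.41 with the neuron score and 0.43 with the pyramidal cell score, and their part in the Tcf4 values was not tested.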

How the data were processed

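Hippocampal RNA of 29 mice was converted to cDNA with Smart-seq2, made into Nextera libraries and read as paired 43-base reads. Alignment by the authors was to GRCm38 (STAR 2.5.1b), followed by RSEM 1.2.22 with the Gencode vM8 annotation. The authors deposited gene-level TPM, which keep no read counts, so that depth and counting error are unknown and precision is the spread between mice. Scaling to a common total ties genes to each other, isoforms are not resolved, and the knock-in bases cannot be seen in gene totals.

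From these, log2(TPM + 1) of 15554 genes was fitted with limma 3.58.1 (R 4.3.3, eBayes with trend) in a model of 4 groups, and sex was fitted beside the groups. Adjusted p values are Benjamini-Hochberg over all tested genes. Correlations used 100000 permutations within groups. Scripts were checked on simulated data. Python 3.11.15, numpy 2.4.6, scipy 1.17.1, pandas 2.3.3 and matplotlib 3.10.9 did the rest. Groups came from the sample labels, and no mouse was left out.

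The members, gene lists and tests were chosen with earlier results of these data known. Named genes are the members, list genes called in a contrast, and the 5 genes most like Tcf4 (mean of at least 5 TPM), of which 1 is not reported here. The most like genes of the other members, the endothelium and choroid plexus covariates, and the use of the 23 mice above the Tcf3 gap were added after seeing the data. Mice are numbered within groups in accession order. Positions are from GENCODE M21.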

Additional observations from a re-analysis of the deposited data

Results flagged for a closer look

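In the older hAβ-KI group, Tcf3 of mouse 2, a male, was far from the others, with 5.49 TPM against 13 TPM in the nearest and 15.45 TPM in the highest mouse. This is the library that also stood apart in Prox1 and Tcf7l2, and 5 further mice of the other groups had Tcf3 in the same low range. In the same group, Id4 of mouse 4, a female, was far above the others, with 21.28 TPM against 8.24 TPM in the nearest and 3.96 TPM in the lowest mouse. Without that mouse the Id4 difference between genotypes at 22 months was 0.06 in place of 0.36. The 7 members in 4 groups gave 28 such comparisons, of which chance flags about 1 in 20.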

How the results depend on the processing

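Of 1386 recomputed log2 differences of members, 1354 kept their direction and side of the threshold (or, where untested, moved by less than the spread between mice). Sign changes were counted only where a test was made. There 31 changed sign and 1, Id3 with age in WT mice, passed with the endothelium score. The untested differences between genotypes at 22 months also changed sign for Id1 and Id3. Id1 ranged from -0.039 to 0.21 under the alternatives and from -0.043 to 0.10 with a mouse left out. Id3 ranged from -0.021 to 0.14 and from -0.033 to 0.025. Tcf4 stayed lower throughout, at -0.62 to -0.56 for genotype at 22 months under 11 alternatives and -0.65 to -0.54 with a mouse left out. The sign changes were in values near 0. For the correlations within the 23 mice above the gap in Tcf3, Tcf3 with Tcf12 was no longer called and Tcf3 with Id4 was. Id1 with age in WT mice was -0.072 with the endothelium score and -0.036 to 0.14 with a mouse left out. Tcf3 for sex was -0.0031 with a pseudocount of 0.1, -0.0010 with mice that share a name number correlated, -0.028 with the choroid plexus score, -0.0011 with the endothelium score and -0.11 to 0.10 with a mouse left out. With a mouse left out, Tcf12 ranged from -0.055 to 0.060 for sex and -0.10 to 0.0077 with age in WT mice, Id4 from -0.15 to 0.067 for sex, and at 2 months Id1 from -0.17 to 0.0004 and Id3 from -0.090 to 0.0008.

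Genes called for genotype at 22 months numbered 77, and 40 with only the groups compared, 48 without a variance trend, 49 with mice that share a name number correlated and 38 with the endothelium score. With a mouse left out they numbered 30 (hAβ-KI mouse 5) to 143 (hAβ-KI mouse 2), with 42 without hAβ-KI mouse 4 and 43, 50, 47 and 51 without WT mice 1, 2, 3 and 6. At 2 months 6 to 11 genes were called with a mouse left out (11 without hAβ-KI mouse 4), with age 509 to 979 in WT mice (509 without WT mouse 7 at 22 months, main count 777) and 910 to 1567 in hAβ-KI mice (910 without hAβ-KI mouse 4 at 22 months, main count 1428), and for sex 12 to 19. The cause was not tested. No paired analysis was possible because the labels give no replicate numbers that link mice across groups.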
